A study of Anas platyrhynchos and Gallus gallus and Anas rubripes with 21 samples.

Results

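The anoctamin (TMEM16) family in the trigeminal ganglion was described here by the 8 genes *ANO1*, *ANO2*, *ANO3*, *ANO4*, *ANO5*, *ANO6*, *ANO8* and *ANO10*, chosen by their consensus symbol among the 20451 genes of the deposited table. Trigeminal ganglia, where the sensory neurons that serve face and bill have their somata, were taken from embryos close to hatching (inner shell membrane broken), and 7 species were sampled with 3 birds apiece. Among them were 6 ducks, namely Pekin duck at embryonic days 25 to 26, black duck at days 21 to 22, lesser scaup at days 25 to 26, ruddy duck at days 30 to 31, harlequin duck at days 28 to 29 and wood duck at days 28 to 31. Chicken, which forages by sight, was taken at days 19 to 21. Pekin duck is a domesticated bird, eggs of the other ducks came from a wildlife research center or a waterfowl conservancy, no bird was treated, and all 3 birds of a species were averaged into 1 value by the authors. Age in days therefore cannot be told apart from species, except between Pekin duck and lesser scaup, which shared days 25 to 26. Wood duck overlapped in days with harlequin duck and ruddy duck, and black duck overlapped with chicken at day 21. No level carries an error between birds, and no difference between species could be tested. The study asked how the ganglia of tactile foragers differ from those of visual foragers, and whether marker genes follow the touch channel gene *PIEZO2* across species.

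Anoctamins are membrane proteins that respond to intracellular calcium. *ANO1* and *ANO2* encode calcium-activated chloride channels, while *ANO6* and several relatives encode scramblases, which let phospholipids cross between the leaflets of a membrane. In rodent sensory neurons, which keep a high internal chloride concentration, opening of *ANO1* channels lets chloride leave the cell and depolarizes it, and *ANO1* has been tied to heat responses of nociceptors.

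All 8 genes stand in both the duck and the chicken annotation, and all 8 averaged 1 RPKM or more across species, the filter used throughout (RPKM divides reads by gene length and by mapped reads, so levels are per length). *ANO2* met this filter with a mean of 1.53 RPKM, and it was at or above 1 RPKM in 3 species only. The members lay between 1.53 RPKM for *ANO2* and 46.6 RPKM for *ANO3* in their mean over the species. The related *ANO7* and *ANO9*, which are not among the 8, did not exceed 0.0248 RPKM in any species, and *ANO7* is annotated in duck alone. The tissue label was checked on neuronal markers. Of 14 pan-neuronal genes listed, 13 were in the table, none was called in either direction, and they summed to 4396 to 5640 RPKM in the ducks, against 4787 RPKM in chicken. Among the ducks, ruddy duck stood apart, with 15.8% of 12497 genes at least 1 log2 unit below the other 5 ducks and 5.22% above them.

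*ANO3*, *ANO10* and *ANO5* carried most of the family's level. Together they made up 58.3 to 73.0% of the summed anoctamin RPKM in the ducks and 78.3% in chicken. The sum itself was 172 ± 23.8 RPKM in the ducks (SD between 6 duck species), against 169.6 RPKM in chicken. On this scale ducks and chicken differed in the total by less than the spread between ducks. RPKM summed over all genes was lower in chicken, at 340453, against 386478 to 415033 in the ducks. Relative to that summed RPKM, the anoctamin sum in chicken lay above every duck but Pekin duck. The closeness of the totals thus depends on the scaling. The make-up of the anoctamin sum also differed. *ANO5* was the largest member in chicken, with 34.8% of the sum, against 11.0 to 19.4% in the ducks. *ANO3* led in Pekin duck, black duck, lesser scaup and wood duck, and *ANO10* led in ruddy duck and harlequin duck. *ANO2* was last in all 7 species.

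**Figure D1:**
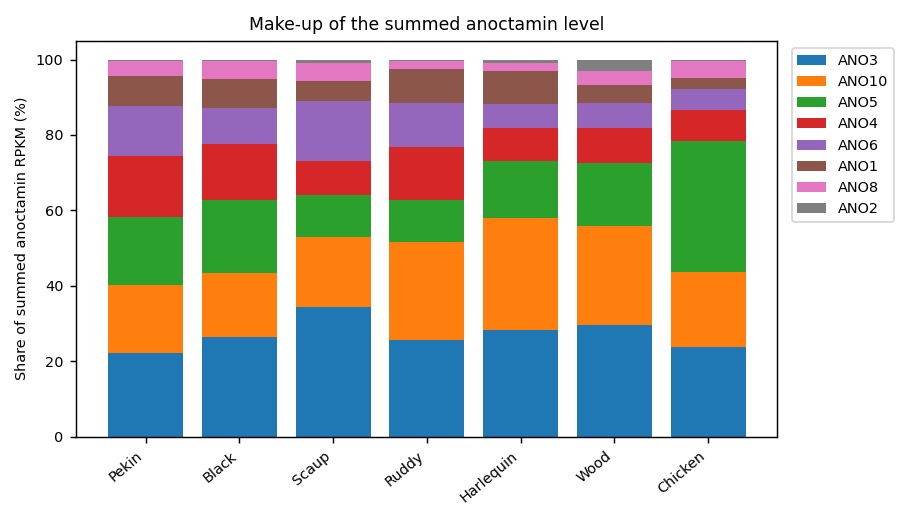
Share of each anoctamin gene in the summed RPKM of the 8 genes (%), for 6 duck species and chicken, each bar built from 1 mean over 3 birds. The *ANO5* segment is widest in chicken (34.8%), and the *ANO1* segment is narrowest there (3.03%).

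The chloride channel gene *ANO1* (duck gene 101801151, chicken gene 423144) was higher in every duck than in chicken. It had 16.9 RPKM in Pekin duck, 15.7 in harlequin duck, 12.3 in ruddy duck, 11.9 in black duck, 9.39 in lesser scaup and 8.43 in wood duck, against 5.14 RPKM in chicken. The ducks and chicken did not overlap, and the nearest duck was wood duck at 1.64-fold of chicken. The duck mean was 12.4 ± 3.35 RPKM (SD between 6 duck species), 2.42-fold the chicken level, with a difference of 1.09 on the log2(RPKM + 1) scale. A gene was called here when this log2 difference reached 1 in size with all 6 ducks on 1 side of chicken. After scaling by median ratios between species, the difference of *ANO1* was 0.91 and no longer called. It stayed called but near the cutoff without Pekin duck (1.00), without harlequin duck (1.02) and after division by pan-neuronal genes (1.03). The largest value among the alternatives was 1.21, with a pseudocount of 0.1. The size of the difference varied among the ducks, from 3.29-fold in Pekin duck to 1.64-fold in wood duck.

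*ANO1* is expressed in nociceptors of rodents, so markers of these and other cells were listed beside it. For nociceptors and thermoreceptors, the sum of 11 such markers in the table, of 13 listed, was 569 to 1212 RPKM in the ducks, against 1563 RPKM in chicken, and wood duck was highest among the ducks. Of these 11 genes, 8 were called lower in ducks and none higher. The list holds markers that the study itself examined in these birds, so its direction is not independent evidence. *ANO1* is also expressed in smooth muscle and related cells of mammals. The summed level of 9 smooth muscle and pericyte markers was 39.6 to 68.2 RPKM in the ducks, against 86.8 RPKM in chicken, and 3 of the 9 were called lower in ducks and none higher. Wood duck, the lowest duck in *ANO1*, had the smallest smooth muscle sum, and also the smallest fibroblast and endothelium sums. Chicken, lower still in *ANO1*, had the largest smooth muscle sum. On the log2 scale *r* of this sum with *ANO1* was -0.32 over the 7 species and 0.61 over the ducks, as a description. The Schwann cell sum, over 8 markers of 10 listed, was 5746 RPKM in wood duck and 8170 to 9477 RPKM in the other 5 ducks, against 5047 RPKM in chicken. Its *r* with *ANO1* on the log2 scale over the 7 species was 0.87, as a description. This was the largest in size among the marker lists for *ANO1*. The myelin gene *MBP* made up 44.3 to 82.8% of that sum, and without *MBP*, an alternative chosen after seeing the data, *r* was 0.14. Over the ducks alone *r* was 0.69 with *MBP* and 0.51 without it. With the nociceptor and thermoreceptor sum, *r* of *ANO1* was -0.77 over the 7 species and -0.46 over the ducks. With the sum of leukocyte markers it was -0.81 and -0.47. The mechanoreceptor and large fiber sum was 5017 to 7559 RPKM in the ducks, against 2399 RPKM in chicken. Its *r* with *ANO1* was 0.62 over the 7 species and -0.54 over the ducks. The part of these sums in the *ANO1* level was not tested. In ganglia taken whole, more cells of a type and more RNA per cell cannot be told apart.

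*ANO2* (duck gene 101792947, chicken gene 428100), the chloride channel gene of olfactory neurons and photoreceptors in mammals, was low in most species and stood out in wood duck. It had 5.13 RPKM in wood duck, 1.89 in harlequin duck, 1.501 in lesser scaup, 0.820 in Pekin duck, 0.462 in black duck and 0.451 in ruddy duck, against 0.446 RPKM in chicken. Black duck and ruddy duck lay next to chicken, so the place of all 6 ducks above chicken rests on small differences. Wood duck was 5.005-fold the mean of the other 5 ducks (1.66 on the log2 scale), 2.71-fold harlequin duck and 11.5-fold chicken. Among the values of 8 genes in 6 ducks it was the only one at least 1 log2 unit from the other ducks, where 6.08% of such values were over all genes tested. *ANO2* passed the filter only through its wood duck level, so this value is a description and no independent support. In wood duck, 1.91% of all genes tested were at least 1 log2 unit higher than in the other ducks and 2.44% lower. The duck mean of *ANO2* was 1.71 ± 1.77 RPKM and its log2 difference from chicken was 0.70, below the size for a call. With a pseudocount of 0.1 in place of 1 that difference was 1.25 and called.

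Wood duck also differed from the other ducks in its marker sums, which are given beside *ANO2*. The nociceptor and thermoreceptor sum was 1212 RPKM in wood duck and 569 to 813 RPKM in the other ducks. The fibroblast sum was 502 RPKM in wood duck, against 1161 to 1369 RPKM in the other ducks, and the Schwann cell sum was 5746 against 8170 to 9477 RPKM. The part of these in the *ANO2* level was not tested. In chicken the nociceptor sum was 1563 RPKM. On the log2 scale *ANO2* had an *r* of 0.94 with this sum over the 6 ducks and of 0.33 over the 7 species, as descriptions. Wood duck was the highest duck in both. With the fibroblast sum *r* was -0.867 over the ducks and -0.876 over the 7 species. With the endothelium sum it was -0.885 and -0.842. Wood duck was the lowest duck in the fibroblast and endothelium sums. Apart from 0.33, these *r* values are among the largest in size over all members and marker lists. *ANO2* passed the filter only through wood duck, so they are no independent support.

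**Figure D2:**
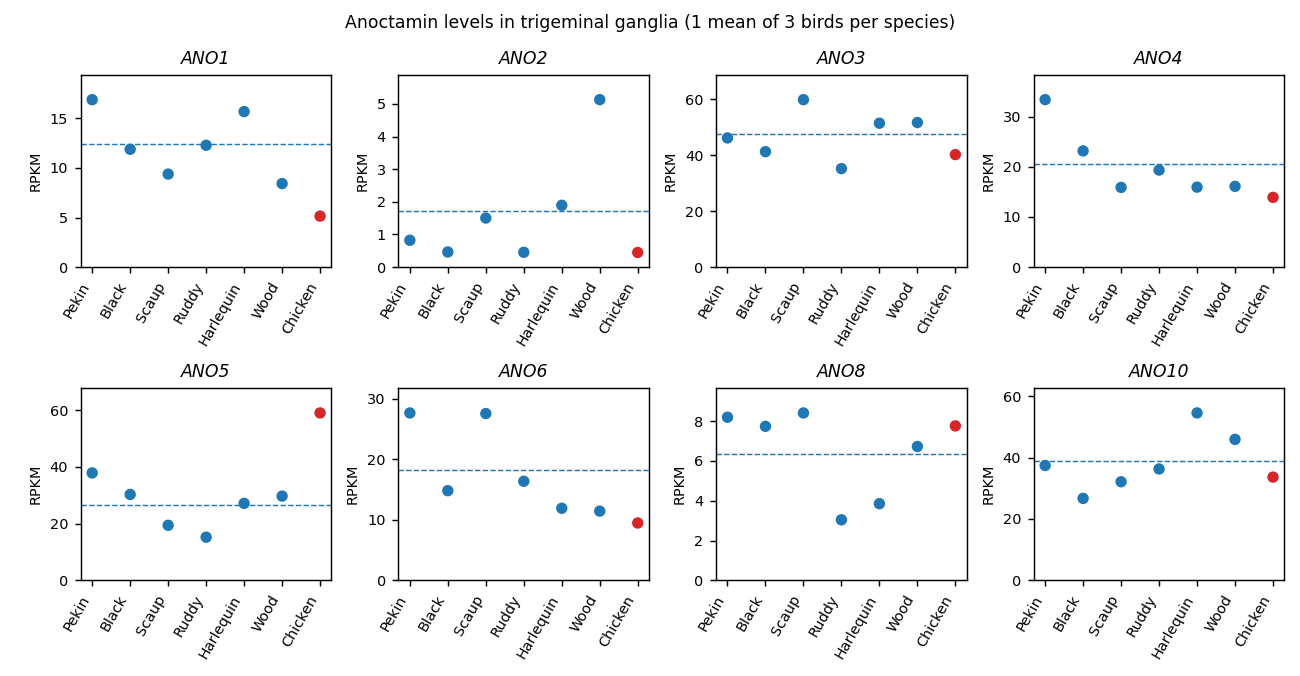
RPKM of each anoctamin gene in 6 duck species (blue) and chicken (red), 1 point per species as the mean of 3 birds, with the dashed line at the mean of the ducks and each axis from 0. *ANO1* lies above chicken and *ANO5* below chicken in all 6 ducks, and *ANO2* in wood duck (5.13 RPKM) lies apart from the rest.

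*ANO5* (duck gene 101791059, chicken gene 422973) was the member that was lower in ducks. In humans its loss causes muscular dystrophy, and other variants cause a bone disorder of the jaw. It had 37.9 RPKM in Pekin duck, 30.3 in black duck, 29.7 in wood duck, 27.1 in harlequin duck, 19.4 in lesser scaup and 15.2 in ruddy duck, against 59.0 RPKM in chicken. All ducks lay below chicken, the nearest being Pekin duck at 0.642 of the chicken level. The duck mean was 26.6 ± 8.15 RPKM (SD between 6 duck species), 0.451 of chicken, and the log2 difference was -1.18. It was called under every scaling, filter and pseudocount tried, with the median of the ducks and without each duck in turn, between -1.42 and -1.03.

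Markers of the tissues known for *ANO5* were looked at beside it. The summed level of 9 skeletal muscle markers in the table, of 10 listed, ran from 9.04 RPKM in wood duck to 215 RPKM in black duck, and it was 22.8 RPKM in chicken. On the log2 scale *r* of this sum with *ANO5* was -0.20 over the 7 species and -0.14 over the ducks, as a description. Of these genes, *TTN* and *NEB* are annotated in duck alone and *MYLPF* in chicken alone. None of the 6 muscle genes that passed the filter was called in either direction. In Pekin duck, lesser scaup and wood duck the fast troponin gene *TNNI2* was under 0.1 RPKM, while the skeletal actin gene *ACTA1* was at 10.1, 9.30 and 5.98 RPKM, against 10.4 RPKM in chicken. The sum of 6 bone and cartilage markers was 9.12 to 57.3 RPKM in the ducks, against 84.5 RPKM in chicken, and 2 of the 3 that passed the filter were called lower in ducks. *SP7*, a transcription factor gene of osteoblasts annotated in chicken alone, was listed at 0 in 5 ducks, at 0.0825 RPKM in ruddy duck and at 0.422 RPKM in chicken. The satellite glia sum, over 6 markers, was 1842 RPKM in ruddy duck and 967 RPKM in lesser scaup, where *ANO5* was lowest, 619 to 757 RPKM in the other ducks and 478 RPKM in chicken. *FABP7*, a fatty acid binding protein gene, made up 61.6 to 93.5% of it. The *r* of the sum with *ANO5* on the log2 scale was -0.92 over the 7 species, the largest in size among the marker lists for *ANO5*. It was 0.50 without *FABP7*, an alternative chosen after seeing the data, so the negative value rests on that gene. Over the 6 ducks *r* was -0.94 with *FABP7* and 0.78 without it. The part of these cells in the *ANO5* level was not tested.

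The scramblase gene *ANO6* (duck gene 101793189, chicken gene 417802), whose loss in humans causes the bleeding disorder Scott syndrome, fell into a high and a low set of ducks. It had 27.7 RPKM in Pekin duck and 27.6 RPKM in lesser scaup, followed by 16.4 in ruddy duck, 14.8 in black duck, 11.9 in harlequin duck and 11.4 in wood duck, against 9.47 RPKM in chicken. Every duck lay above chicken, with wood duck nearest at 1.21-fold. The duck mean was 18.3 ± 7.44 RPKM, 1.93-fold the chicken level, with a log2 difference of 0.80 that was not called. Pekin duck and lesser scaup belong to different genera, while black duck, of the same genus as Pekin duck, had about the level of ruddy duck.

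*ANO4* (duck gene 101791006, chicken gene 427878), a less studied relative, was highest in Pekin duck. It had 33.4 RPKM in Pekin duck and 23.2 in black duck, then 19.4 in ruddy duck, 16.1 in wood duck, 16.0 in harlequin duck and 15.9 in lesser scaup, against 13.9 RPKM in chicken. Wood duck, harlequin duck and lesser scaup were nearly equal, and all 6 ducks lay above chicken. The duck mean was 1.48-fold chicken (20.7 ± 6.88 RPKM), a log2 difference of 0.49. Without Pekin duck the highest of the remaining ducks was 0.52 log2 units above the lowest, against 1.03 with it.

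*ANO3* (duck gene 101800679, chicken gene 422968), which in rat sensory neurons enhances the sodium-activated potassium channel Slack, was the highest and the most even member. It had 59.9 RPKM in lesser scaup, 51.8 in wood duck, 51.5 in harlequin duck, 46.2 in Pekin duck, 41.3 in black duck and 35.2 in ruddy duck, against 40.3 RPKM in chicken. Chicken lay within the range of the ducks. The duck mean was 47.7 ± 8.71 RPKM, and the coefficient of variation over the ducks was 18.3%, the lowest of the 8. In the current duck reference of RefSeq (IASCAAS_PekinDuck_T2T), *ANO3* and *ANO5* lie on 1 chromosome with 5 protein-coding genes between them. Their levels did not run together, with *ANO5* highest in chicken and *ANO3* highest in lesser scaup.

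*ANO10* (duck gene 101796551, chicken gene 420674), whose loss causes a cerebellar ataxia in humans, was highest in harlequin duck. It had 54.5 RPKM in harlequin duck, 45.9 in wood duck, 37.4 in Pekin duck, 36.3 in ruddy duck, 32.1 in lesser scaup and 26.7 in black duck, against 33.6 RPKM in chicken. Chicken lay between lesser scaup and ruddy duck.

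*ANO8* (duck gene 101791135, chicken gene 429912), which in mammalian cells tethers the endoplasmic reticulum to the plasma membrane, had 8.41 RPKM in lesser scaup, 8.20 in Pekin duck, 7.74 in black duck, 6.73 in wood duck, 3.85 in harlequin duck and 3.04 in ruddy duck, against 7.76 RPKM in chicken. Harlequin duck and ruddy duck were low and the other 4 ducks were near chicken. The log2 differences of ducks and chicken were 0.16 for *ANO10* and -0.33 for *ANO8*.

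Over the 8 members, 1 was called higher in ducks and 1 lower. Among all 12497 genes that passed the filter, 17.6% were called higher and 12.5% lower (30.1% either way), so the count of members was no larger than the background. All 6 ducks lay above chicken in 4 members (*ANO1*, *ANO2*, *ANO4* and *ANO6*), against 35.9% of all genes. Of these 4, *ANO2* passed the filter only through wood duck, and in black duck and ruddy duck it lay next to chicken. Its place in this count is thus no independent support. All 6 ducks lay below chicken in 1 member, against 26% of all genes. The median log2 difference of the members was 0.35, beside 0.18 for all genes tested. Scaling by the median ratio moved the all-gene median to -0.01 and the called genes to 14.4% higher and 16.2% lower, and placed *ANO10* slightly below chicken, at -0.04 in place of 0.16. Relative to the all-gene median, *ANO3* and *ANO10* lay close to no difference. *ANO1* was at percentile 83.5 of all genes in its log2 difference and *ANO5* at percentile 10.6.

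**Figure D3:**
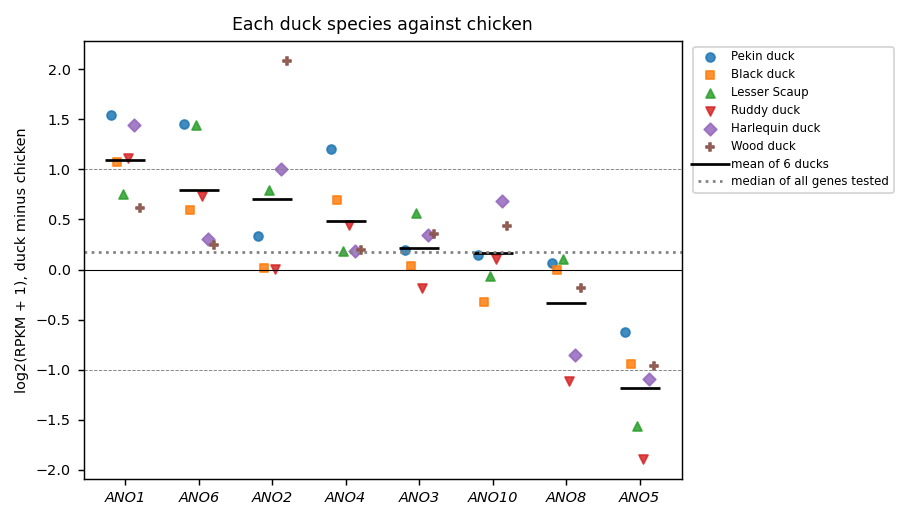
Difference of each duck species from chicken in log2(RPKM + 1) for the 8 anoctamin genes, with the mean of the 6 ducks as a bar, the median of all 12497 genes tested as a dotted line and dashed lines at 1 and -1. The bar of *ANO1* (1.09) and that of *ANO5* (-1.18) lie outside the dashed lines.

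The members also differed between ducks. In 6 of 8 members (*ANO2*, *ANO4*, *ANO5*, *ANO6*, *ANO8* and *ANO10*) the highest duck was at least 1 log2 unit above the lowest, against 45.9% of all genes tested. The median range was 1.12 log2 units for the members and 0.94 for all genes. *ANO4* (1.03) and *ANO10* (1.00) lay at the cutoff. *ANO2* passed the filter only through wood duck, so its range is no independent support. No duck was at an end for all members. Ruddy duck was the lowest duck for *ANO2*, *ANO3*, *ANO5* and *ANO8*, while Pekin duck was the highest for *ANO1*, *ANO4*, *ANO5* and *ANO6*. How often each was lowest or highest over all genes was not computed. Ruddy duck was at least 1 log2 unit below the other ducks in 15.8% of all genes tested, where the other ducks had 0.72 to 2.44%. Its low place is thus not particular to these members. Harlequin duck was the highest for *ANO10* alone, and wood duck for *ANO2* alone. Without ruddy duck, 4 of 8 members kept a range of 1 log2 unit (*ANO2*, *ANO4*, *ANO6* and *ANO10*), against 19.9% of all genes, and *ANO5* and *ANO8* had ranges of 0.93 and 0.96. Without Pekin duck 4 of 8 did, against 43.7% of all genes. Without wood duck, where *ANO2* fell below the filter, 5 of 7 did, against 40.8%. With species scaled by median ratio 5 of 8 did, against 43.7%, and *ANO10* did not. *ANO8* was 0.94 log2 units lower in ruddy duck than in the other ducks.

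**Figure D4:**
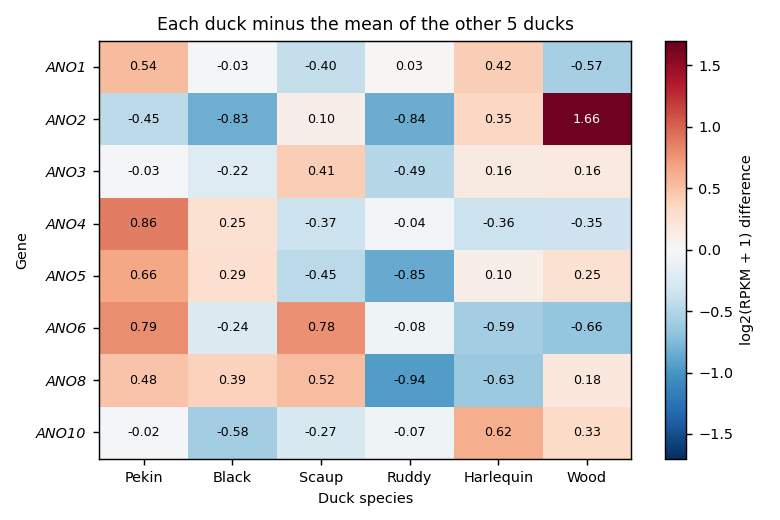
Difference of each duck species from the mean of the other 5 ducks in log2(RPKM + 1), by gene and species, with red for higher and blue for lower. *ANO2* in wood duck (1.66) is the only value of at least 1 in size.

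Across the 28 pairs of members, Pearson's *r* of log2(RPKM + 1) over the 7 species was above 0 in 15 and had a median of 0.0182. Over the 6 ducks it was above 0 in 18 pairs, with a median of 0.195. The highest over the 7 species was 0.69 for *ANO1* and *ANO4* and the lowest was -0.50 for *ANO8* and *ANO10*. Among the ducks the highest was 0.645 for *ANO2* and *ANO3* and the lowest was -0.560 for *ANO2* and *ANO4*. Both of these pairs hold *ANO2*, which passed the filter only through its wood duck level, so they are no independent support. All *r* values between members are descriptions over species means that share an origin and an annotation.

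*PIEZO2*, the touch channel gene that the study set against markers of sensory neuron types, ranged from 68.3 to 101.8 RPKM in the ducks, against 48.2 RPKM in chicken. For each member, Pearson's *r* and Spearman's rho were computed over the 7 species, with a two-sided p from the exact permutation of species labels and Benjamini-Hochberg adjustment over 12496 genes. Shared ancestry of the species was not modelled in these p-values. No member passed at an exact p under 0.05 by *r*, against 13% of all genes (6.25% with *r* above 0 and 6.73% below), and no gene at all passed after adjustment, a share of 0% (smallest adjusted p = 0.363).

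*ANO6* came nearest, with *r* = 0.755 (exact p = 0.0544, adjusted p = 0.384) and rho = 0.929 (exact p = 0.00675, adjusted p = 0.686). Its order over the species was that of *PIEZO2* but for exchanges of neighbours, harlequin and wood duck at the low end and black and ruddy duck in the middle. Among the 6 ducks *r* was 0.744 (exact p = 0.0792) and rho was 0.886 (exact p = 0.0333), and without chicken and harlequin duck, which lie farthest from the median in *PIEZO2*, it was 0.771 (exact p = 0.125). The value of *r* was thus about as large without chicken. *ANO10* ran the other way among the ducks, with *r* = -0.920 (exact p = 0.0167, adjusted p = 1, against 4.06% of all genes called in the ducks) and rho = -0.600 (exact p = 0.242). Over the 7 species *r* of *ANO10* was -0.377 (exact p = 0.405, adjusted p = 0.673), and chicken had the lowest *PIEZO2* level with a middling *ANO10* level. Without chicken and harlequin duck it was -0.788 (exact p = 0.150).

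Except for *ANO4*, *r* of the other members differed between the 7 species and the ducks. For *ANO4*, *r* was 0.615 (exact p = 0.133, adjusted p = 0.420) and 0.562 among the ducks (exact p = 0.272). For *ANO5*, *r* was -0.667 over the 7 species (exact p = 0.105, adjusted p = 0.405) but 0.0425 among the ducks (exact p = 0.917). For *ANO1*, *r* was 0.484 over the 7 species (exact p = 0.270, adjusted p = 0.555) but -0.106 among the ducks (exact p = 0.886). For *ANO2*, *ANO3* and *ANO8* the *r* over 7 species was -0.0715, 0.177 and 0.185 (exact p = 0.919, 0.692 and 0.728), and each changed sign under at least 1 other setting. Among the ducks, *ANO8* had an *r* of 0.652 (exact p = 0.138) and a rho of 0.771 (exact p = 0.103), and *ANO2* had an *r* of -0.511 (exact p = 0.286). With the same pair of species left out as for *ANO6*, *ANO2* had an *r* of -0.823 (exact p = 0.183) and *ANO8* one of 0.457 (exact p = 0.400). Over the 7 species the members had a median *r* of 0.181, beside 0.138 for all genes.

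**Figure D5:**
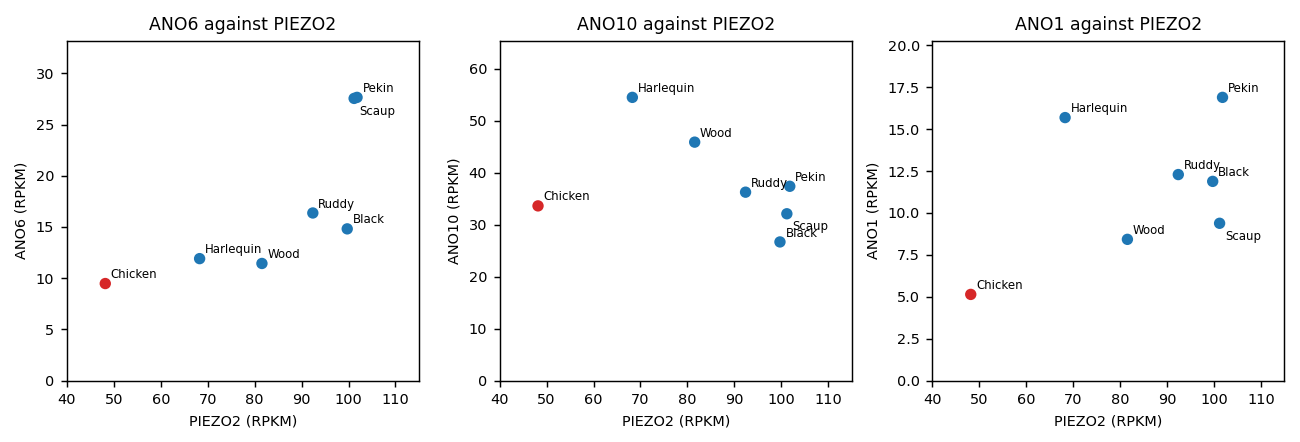
Levels of *ANO6*, *ANO10* and *ANO1* against the *PIEZO2* level (RPKM, both axes) in 6 duck species (blue) and chicken (red), 1 point per species. *ANO6* is high in Pekin duck and lesser scaup, and *ANO1* is lowest in chicken. Among the ducks *ANO10* has *r* = -0.920 and rho = -0.600 with *PIEZO2*. Its order is not strict, as Pekin duck, highest in *PIEZO2*, lies above ruddy duck, lesser scaup and black duck in *ANO10*.

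Genes that work beside anoctamins were described from lists of known roles, by the same calls and beside the same background of 17.6% higher and 12.5% lower. Of other chloride channel genes, 14 of 20 in the table passed the filter, 2 were called higher in ducks, 1 lower and 11 neither, with a median log2 difference of -0.12. Those called higher were *LRRC8C* (17.9 ± 4.12 RPKM in the ducks, against 6.02 in chicken) and *LRRC8D* (22.4 ± 1.88 and 9.60 RPKM), both subunits of the volume-regulated anion channel. *TTYH2*, a tweety family gene, was lower (2.18 ± 0.626 and 7.20 RPKM), but it is annotated in chicken alone.

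Chloride cotransporters and their kinases set the internal chloride on which the effect of an open anoctamin channel depends. Of 9 that passed the filter, 1 was called higher, 2 lower and 6 neither, with a median log2 difference of 0.07. The potassium-chloride cotransporter gene *SLC12A4* averaged 46.2 ± 11.2 RPKM in the ducks, against 8.06 in chicken. The kinase gene *WNK4* was lower (0.710 ± 0.261 and 2.90 RPKM), as was *SLC12A9* (0.883 ± 0.399 and 2.996 RPKM). *SLC12A2*, which loads sensory neurons with chloride in mammals and was chosen for that role, averaged 45.2 ± 9.15 RPKM in the ducks, against 34.4 in chicken, and was not called.

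Among 18 other scramblase and flippase genes that passed, 5 were called higher, 2 lower and 11 neither, with a median log2 difference of 0.28. The flippase gene *ATP8A2* averaged 227 ± 57.3 RPKM in the ducks, against 55.2 in chicken, and *VMP1*, a scramblase of the endoplasmic reticulum, was 59.1 ± 17.2 and 16.0 RPKM. *PLSCR1*, annotated in chicken alone, was lower (8.05 ± 3.49 and 48.1 RPKM). Of 19 genes for calcium sources and sensors, 2 were called higher, 3 lower and 14 neither, with a median of -0.43. The purinergic receptor gene *P2RY1* was higher (53.7 ± 8.17 and 11.8 RPKM). *ESYT1*, a tether of the endoplasmic reticulum annotated in chicken alone, was lower (5.39 ± 1.87 and 27.6 RPKM). *CALML3*, also annotated in chicken alone, was listed at 0 in Pekin duck, black duck and lesser scaup, at 11.0 to 37.8 RPKM in the other ducks and at 0.0169 RPKM in chicken, and was not called. Of the distant TMC and TMEM63 relatives, 7 passed the filter, *TMC7* was called higher (23.1 ± 9.31 and 6.66 RPKM) and the other 6 were not called, among them *TMC5* (1.198 ± 0.888 and 0.177 RPKM) and *TMC3* (24.3 ± 11.4 and 36.9 RPKM).

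The genes whose pattern was most like that of the 3 highest members were taken by *r* of log2(RPKM + 1) over the 7 species, among 7369 genes in both annotations that averaged 5 RPKM or more. For *ANO3* they were *PLBD2* (0.978), *CAPN7* (0.973) and *GRIA4* (0.964), of which *GRIA4* encodes an AMPA receptor subunit. For *ANO5* they were *DESI1* (0.975), *MGAT3* (0.973) and *ELP3* (0.969), each highest in chicken and lowest in ruddy duck, as *ANO5* was. For *ANO10* they were *MOB1A* (0.910), *MACROD2* (0.892) and *TMEM126A* (0.890). An *r* over 0.9 was reached by 71 genes for *ANO5* (0.96% of the 7369), 28 for *ANO3* (0.38%) and 1 for *ANO10* (0.014%). The named genes are the top of 7369 over 7 species means. How many would reach such values by chance was not tested.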

How the data were processed

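Total RNA of trigeminal ganglia was made into strand-specific poly(A) libraries and sequenced in pairs. Per the paper and the submitters' processing notes, reads were trimmed (Trimmomatic 0.36), aligned to both the duck (BGI_duck_1.0) and the chicken (GRCg6a) genome (STAR 2.5.4b) and counted over protein-coding genes (featureCounts, Subread 1.6.2). The authors deposited RPKM values, made with edgeR 3.22.3, as 1 mean of 3 birds per species, with both gene lists joined by symbol. Ratios of ducks to chicken thus also depend on annotated gene lengths and on how well reads of each species align. Depth per bird is not in the table, so no interval is given.

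From these RPKM values, differences were computed on log2(RPKM + 1), with Python 3.11.15, numpy 2.4.6 and pandas 2.3.3, for 12497 genes averaging 1 RPKM or more. SDs are between the 6 duck species. The limma fit foreseen for values per bird could not be used. Exact permutation p-values for *PIEZO2* were tested on simulated data. The members and gene lists were chosen with earlier results of these data known. Named are the 8 members, *PIEZO2*, up to 3 genes of largest difference per pathway list and 3 most similar genes for each of the 3 highest members. *SLC12A2*, markers and *ANO7* and *ANO9* were named beyond this rule. Alternatives were other pseudocounts, filters, scalings, species left out and correlation scales.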

Additional observations from a re-analysis of the deposited data

Results flagged for a closer look

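*ANO2* in wood duck, at 5.13 RPKM, lay far from the other species, and *ANO2* passed the filter only through this value. On the RPKM scale its gap to the next species, harlequin duck, was 0.692 of the whole range among the 6 ducks (critical value 0.625) and 0.691 among the 7 species (critical value 0.568), which are the same value in nested sets of species. On the log2(RPKM + 1) scale, chosen after seeing the data, the gap was 0.521 and 0.520 of the range, below both critical values. Of the 8 genes, each looked at in both sets of species, 1 passed on the RPKM scale. The critical values flag about 1 in 20 groups by chance if values are normally distributed, which was not tested here. The gap is thus a description.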

How the results depend on the processing

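Under 14 alternatives to the difference between ducks and chicken, *ANO5* alone was called lower throughout. The number of members called higher was 2 with a pseudocount of 0.1 (*ANO1* and *ANO2*, with 20.5% of all genes called higher and 14.9% lower) and 0 with species scaled by their median ratio (14.4% and 16.2%), and 1 otherwise. Of all genes, 10.8% were called higher and 10.6% lower with no filter, and 19.4% and 8.98% among genes averaging 5 RPKM or more, where *ANO2* drops out. Quantile normalization placed *ANO10* at -0.07 and *ANO3* at -0.0033. With a pseudocount of 0.1, 4 values of a duck against the other ducks reached 1 log2 unit (10% of all such values), among them *ANO2* in black and ruddy duck. At an exact p under 0.05 with *PIEZO2*, 1 member passed on the log2 scale (*ANO6*, with 14.5% of all genes), by rank (*ANO6*, 6.67%), among the 6 ducks (*ANO10*, 4.06%) and after division by pan-neuronal genes (*ANO5*, *r* = -0.765, 15.2%), and 0 to 1 without each duck in turn (1 without black duck, *ANO6*, *r* = 0.850, 9.03%). Without wood duck, *ANO2* fell below the filter. The sign of *r* turned for *ANO2* on the log2 scale (0.0260) and by rank (0.107). It turned among the 6 ducks for *ANO1* (-0.106), *ANO3* (-0.152) and *ANO5* (0.0425), and without the 2 farthest species for *ANO5* (0.122). Scaling by the median ratio turned it for *ANO3* (-0.229) and *ANO8* (-0.131), as did division by pan-neuronal genes for *ANO8* (-0.119). Without each duck in turn, *r* ran from -0.0738 to 0.0215 for *ANO2*, -0.109 to 0.349 for *ANO3* and -0.0106 to 0.432 for *ANO8*. The cause of these changes was not tested. No paired analysis was possible because the table holds no values per bird, and for the same reason no bird could be left out.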
